A study of Rattus norvegicus with 9 samples.

Results

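Spliced transcripts between annotated genes were taken from the assembly of each library: those to which Cufflinks, the assembler used by the authors, gave an identifier of its own (a CUFF name), that had 2 or more exons, and that did not overlap the span of any annotated Ensembl rat transcript listed for the same library, on either strand. The 9 libraries held 7301 such transcripts, between 732 and 883 per library, of 555558 unannotated transcripts listed in all and beside 29145 annotated ones. Transcripts that shared exon sequence on 1 strand were merged across libraries, which gave 1471 loci, named SL0001 to SL1471 in the order of their position. Of these, 753 lay on the plus strand.

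The libraries were mRNA-seq of rat bone marrow cells at passage 3. Untreated mesenchymal stem cells (MSCs) were the control, neural progenitor-like cells (NPCs) were MSCs kept for 3 days with EGF and bFGF, and a further group (NPC IGF1) was kept for 3 days with EGF, bFGF and IGF1. By the paper's methods NPCs were induced in ultra-low attachment plates in NeuroCult NS-A medium, whereas MSCs were grown attached. Growth factors, medium and suspension therefore cannot be told apart in comparisons of NPCs with MSCs. Each group had 3 libraries, for which 300 ng of total RNA went into a poly(A) kit that keeps strand. The MSCs came from 3 young Sprague Dawley rats, and both induced groups were cells grown from such MSC cultures, so that each group is a mixed culture and not a purified cell type. Which rat gave which library is not in the labels, and p-values therefore measure the spread between these samples. In bulk RNA, fewer cells of a type and less RNA per cell cannot be told apart. Marker genes were looked up by symbol in the named part of the annotation, which held 1 of 8 MSC markers, 1 of 4 blood cell markers and 2 of 6 neural progenitor markers. Vim, an intermediate filament gene of MSCs, stood at 2560 to 3010 FPKM in MSCs and at 629 to 879 FPKM in both induced groups. Nes, the intermediate filament gene of neural progenitors, was at 0.0534 to 0.152 FPKM in MSCs and at 0.268 to 0.331 FPKM in the induced cells, a low level throughout. Dcx, a gene of migrating young neurons, lay between 0.0128 and 0.0434 FPKM, and the leukocyte gene Ptprc was at 0.0142 FPKM or less in all 9 libraries.

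Spliced RNA from the space between annotated genes can be a long noncoding RNA, an exon of a neighbouring gene that the annotation does not hold, or a gene missing from it. Long noncoding RNAs are as a rule lower in exon number and in level than mRNAs, and many start next to the promoter of a protein-coding gene and run away from it. An assembler joins reads that cross an exon junction into a transcript, so a weakly expressed locus may be assembled in 1 library and not in the next. Levels below are FPKM, fragments corrected for transcript length and for the depth of the library.

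Loci that ran away from a gene start, head to head with it, included 130 whose nearest annotated gene began within 1000 bases. The gene had a symbol in 11 of the 130, and a RefSeq promoter sequence was at hand for 9. The following 3 were each assembled in 7 or more libraries, and the rest of the 9 in 1 or 2. These 3 are shown because a single stretch of DNA lies between both transcripts. The window printed is not that stretch. By the distances in the assembly, 91 bases for Erg28 and 226 for Ppp4r3b, it runs on into the locus. At Blzf1, 456 bases from its locus, it covers a part of the stretch. The sequence is the 250 bases before the gene start, 5′ to 3′ on the strand of the gene, from RefSeq (build GRCr8, which is not the build of the assembly), with each CG dinucleotide in capitals.
Erg28, chr6:111214069-111214318, minus strand: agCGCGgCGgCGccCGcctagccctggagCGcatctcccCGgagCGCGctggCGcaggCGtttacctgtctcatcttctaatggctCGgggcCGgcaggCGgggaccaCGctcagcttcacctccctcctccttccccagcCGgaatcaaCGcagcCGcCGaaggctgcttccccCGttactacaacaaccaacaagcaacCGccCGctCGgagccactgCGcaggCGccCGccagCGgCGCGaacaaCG
Blzf1, chr13:79190117-79190366, minus strand: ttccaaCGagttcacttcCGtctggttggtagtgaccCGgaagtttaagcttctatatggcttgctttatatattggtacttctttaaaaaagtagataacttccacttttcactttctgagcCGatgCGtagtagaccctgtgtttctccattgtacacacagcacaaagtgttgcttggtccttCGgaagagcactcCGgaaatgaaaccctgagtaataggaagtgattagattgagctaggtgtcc
Ppp4r3b, chr14:107117883-107118132, plus strand: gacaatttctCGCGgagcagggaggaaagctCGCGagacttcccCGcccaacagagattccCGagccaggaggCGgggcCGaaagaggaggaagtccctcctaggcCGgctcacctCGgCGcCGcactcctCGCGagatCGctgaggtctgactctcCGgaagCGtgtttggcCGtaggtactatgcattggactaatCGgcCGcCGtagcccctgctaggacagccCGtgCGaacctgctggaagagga
The Erg28 window held 30 CG dinucleotides, that of Ppp4r3b held 23 and that of Blzf1 held 7. Over the 33465 RefSeq rat promoters with a full window the median was 5, and 35.9% held at least 10. Among the 9 head to head promoters the median was 23, and 8 of them held at least 10. The letters CCAAT, searched on both strands, were in 6 of the 9 and in 34.0% of all promoters. These counts describe the windows and were not tested.

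Erg28 takes part in sterol synthesis, and SL0637 began 91 bases from it (chr6:119000604-119006606, plus strand in the assembly's coordinates). SL0637 had 3 exons and was assembled in 7 libraries. Its exon-level value takes the implied reads of all transcripts listed over its merged exons, per effective length, as set out below. This value lay between 2.07 and 3.02 FPKM in MSCs, between 2.94 and 3.78 FPKM in NPCs and between 3.19 and 4.56 FPKM in NPC IGF1. Erg28 itself went from 11.9, 13.8 and 12.5 FPKM in MSCs to 5.3, 6.76 and 6.09 FPKM in NPCs, a log2 change of -1.15 ± 0.16 (SE, limma adjusted p = 0.0025). The gene was lower in every NPC library, while the exon level of the locus had a log2 change of 0.31 ± 0.25 (adjusted p = 0.362).

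Sema5a, which encodes a semaphorin of axon guidance, lay 153 bases head to head from SL0244 (chr2:105045628-105049190, minus strand). Its RefSeq promoter was not in the table. SL0244 was found in all 9 libraries, with exon-level values of 16.7, 18.0 and 11.4 FPKM in MSCs, 34.7, 28.1 and 19.8 FPKM in NPCs and 32.1, 37.9 and 29.9 FPKM in NPC IGF1. The groups did not overlap with MSCs: log2 change 0.75 ± 0.22 (SE, limma adjusted p = 0.0369) in NPCs and 1.04 ± 0.21 (adjusted p = 0.00417) in NPC IGF1. Sema5a rose far more, from 0.0554 to 0.0971 FPKM in MSCs to 3.55 to 5.88 FPKM in NPCs (log2 change 4.70 ± 0.27, adjusted p = 7.65e-05). The summed FPKM of SL0244 did not pass in either comparison. SL1154, 226 bases from the phosphatase regulator gene Ppp4r3b, had exon-level values of 1.08, 1.09 and 0.313 FPKM in MSCs and 2.23, 3.56 and 2.19 FPKM in NPCs (log2 change 1.63 ± 0.42, adjusted p = 0.0215), and 0.777, 3.04 and 3.11 FPKM in NPC IGF1, which overlapped with MSCs. SL1091, 456 bases from the Golgi protein gene Blzf1, had no transcript of 300 bases and was not tested; NPC replicate 2 listed nothing there. SL0993, 508 bases from Cggbp1, passed no call. These 5 loci at gene starts were chosen after their values were seen.

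Few loci were common to the whole series. Of the 1471 loci, 521 (35.4%) were assembled spliced in 1 library only and 162 (11.0%) in all 9. Exon number went with recurrence: of the loci of 1 library, 482 (92.5%) never had more than 2 exons and 2 reached 5, whereas 87 of the 162 loci found in all 9 libraries had 5 or more exons. The longest transcript had a median of 381 bases among loci of 1 library and of 1384 bases among loci of all 9. Loci with more reads are assembled more readily, and the part of depth in this pattern was not tested.

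**Figure D1:**
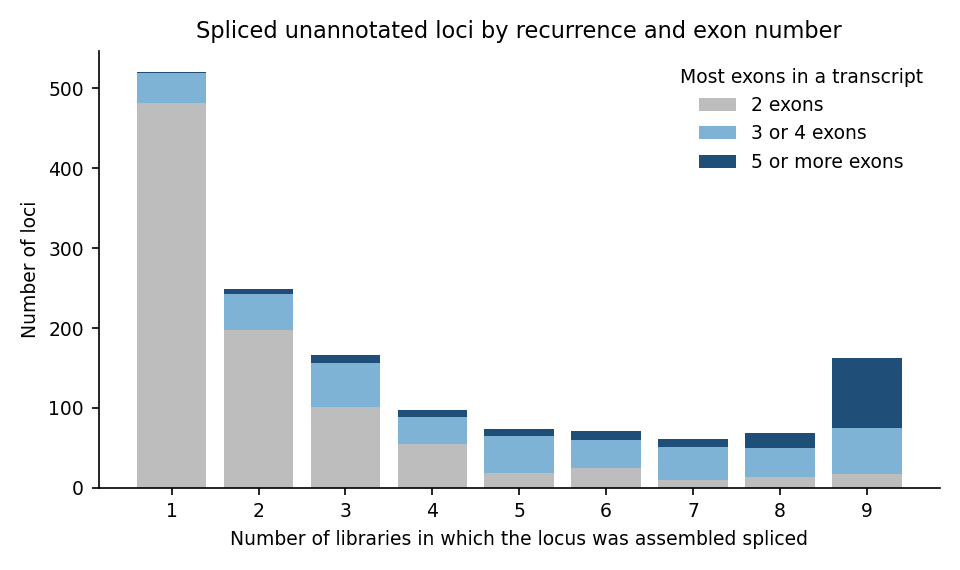
Number of loci (y axis) by the number of libraries in which they were assembled spliced (x axis), coloured by the largest exon number of a transcript of the locus. Loci of 1 library are nearly all of 2 exons (482 of 521), and loci with 5 or more exons are most frequent among those found in all 9 libraries (87 of 162).

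Group membership was mixed. A total of 481 loci (32.7%) had a spliced transcript in at least 1 library of each group, 232 in MSCs alone, 181 in NPCs alone, 241 in NPC IGF1 alone and 183 in both induced groups but not in MSCs. Loci seen in a single group were seen in few libraries, with means of 1.41, 1.12 and 1.20 libraries for MSCs, NPCs and NPC IGF1. Those in all 3 MSC libraries and in no induced library numbered 26, and at 16 of the 26 no transcript of any kind was listed over the exons in the 6 induced libraries. In the other direction, 9 loci were in all 6 induced libraries and in no MSC library, and 7 of the 9 were without any transcript in MSCs. Just 1 locus was found in all 3 NPC libraries and in no other library, and 5 were in all 3 NPC IGF1 libraries and in no other. None of those 6 lacked other transcripts over the same exons elsewhere.

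The transcripts per library numbered 804, 751 and 732 in MSCs, 823, 807 and 834 in NPCs and 854, 813 and 883 in NPC IGF1. Every induced library held more than every MSC library (mean 762.3 ± 37.3 SD in MSCs, 821.3 ± 13.6 in NPCs and 850.0 ± 35.2 in NPC IGF1, n = 3 each). An exact two-sided permutation test gave p = 0.1 for both comparisons with MSCs, which is the smallest p that 3 against 3 libraries allow, and p = 0.3 between the induced groups. Among transcripts with full read support the groups overlapped (exact permutation p = 0.2 for both comparisons with MSCs). Implied depth, in M reads from FPKM, its interval width and effective length, was 45.7 to 54.8 in MSCs and 41.7 to 51.8 in the induced libraries.

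In structure the transcripts were short and had few exons. The median was 2 exons in each of the 9 libraries, and the mean per library ran from 2.90 to 3.13. Annotated spliced transcripts had a median of 7 exons, and the unannotated isoforms of annotated genes a median of 9. Over all libraries 59.1% of the transcripts had 2 exons, against 12.5% of annotated spliced transcripts. Their median length was 497 bases, against 1749.5 bases for annotated ones. Single exons were of like size in both (median 144 and 129 bases) and introns were longer, with a median of 1731.5 bases against 1239 bases and 13.5% over 10000 bases against 8.48%. Of 4015 distinct introns, 2399 (59.8%) had the same ends in 2 or more libraries and 291 in all 9.

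Length differed little by group. The median transcript length was 454.5, 509 and 465 bases in MSCs, 529, 504 and 470 bases in NPCs and 511.5, 514 and 549 bases in NPC IGF1. NPC IGF1 did not overlap with MSCs (exact permutation test, two-sided, p = 0.1), and NPCs did (p = 0.4). For transcripts at least 5 kb from annotated ones the difference of NPC IGF1 from MSCs went from 48.67 to 17.33 bases, with overlap (exact permutation p = 0.5). Among the 162 loci found in every library, the mean of the longest transcript of a locus was 1091 ± 96.9 bases (SD, n = 3) in MSCs, 1285 ± 94.8 bases in NPCs and 1277 ± 59.2 bases in NPC IGF1. Both induced groups lay above all MSC libraries (p = 0.1 each by the exact permutation test), with 104 of the 162 loci longer in NPCs and 58 shorter. Exon number at these loci was 4.109 ± 0.254 in MSCs and 4.117 ± 0.0309 in NPCs, a difference well within the spread (exact permutation p = 1).

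The most exons were found at SL0816, with 25 exons in a transcript of 3501 bases at most (chr8:81641955-81742823, plus strand), SL1205 with 21, SL0027 with 20, SL0976 with 19 and SL0730 with 18. SL0816, SL1205 and SL0027 were assembled in all 9 libraries. SL0816 had exon-level values of 20.9, 21.5 and 20.1 FPKM in MSCs and 9.02, 9.27 and 7.78 FPKM in NPCs. Its summed FPKM ran the other way, at 78.1, 81.0 and 83.7 in MSCs and 169, 89.2 and 116 in NPCs. Its exon level fell by 1.33 ± 0.13 on the log2 scale in NPCs (SE, limma adjusted p = 0.000459), and the summed FPKM did not pass (log2 change 0.49 ± 0.25, adjusted p = 0.175). SL0027 (chr1:43164279-43205968, minus strand) was the reverse case in direction, at 3.13, 3.53 and 2.63 FPKM on the exon level in MSCs and 24.2, 22.8 and 16.9 FPKM in NPCs. That is a log2 change of 2.66 ± 0.18 (adjusted p = 8.03e-05), and NPC IGF1 stood at 18.2, 15.2 and 15.8 FPKM. The summed FPKM of SL0027 did not pass in either comparison with MSCs. It was 34.3, 29.4 and 34.0 in MSCs and 59.9, 160 and 49.2 in NPCs (log2 change 1.18 ± 0.41, limma adjusted p = 0.0681). In NPC IGF1 it was 30.6, 20.9 and 24.8 (log2 change -0.46 ± 0.38, limma adjusted p = 0.382).

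The longest transcript belonged to SL0186 (chr1:228115106-228137073, minus strand), with 21662 bases. Transcripts of that locus had up to 3 exons, and its merged exons took up its whole span of 21968 bases. Each of its introns was thus exon in another of its transcripts. SL0032 followed at 10828 bases, SL0745 at 9159 bases, SL1017 at 8832 bases and SL0650 at 8085 bases. SL0032 lay tail to tail with Mas1, a receptor gene, with Igf2r, the receptor of insulin-like growth factor 2, on its other side. It was spliced in MSC replicate 2 and NPC replicate 2 only. SL1017, upstream of Tm4sf19 by 6944 bases, was in all 9 libraries at exon-level values of 3.93 to 8.67 FPKM, with no call on the summed FPKM or the exon level (on the exon level for NPC IGF1 against MSCs, log2 change 0.48 ± 0.17, adjusted p = 0.0466, under the 2-fold limit). Its value per effective length of the spliced transcripts alone was called higher in NPCs (log2 change 1.41 ± 0.24, adjusted p = 0.00516).

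Most loci were not next to a gene. The median distance to the nearest annotated gene was 6714 bases, 312 loci lay within 1000 bases, 824 were at least 5000 bases away from every annotated transcript and 70 at least 100000 bases away. At 7 loci an annotated transcript listed in another library overlapped. With respect to the nearest gene, 531 loci (36.1%) were upstream on the same strand, 387 (26.3%) downstream on the same strand, 370 (25.2%) head to head and 183 (12.4%) tail to tail. Head to head loci were the nearest to their genes, at a median of 4435 bases, against 6863 bases for loci upstream on the same strand and 10950 bases for tail to tail loci. Among the 162 loci found in all 9 libraries the order differed, with a median of 4070 bases for tail to tail and 5976 bases for head to head loci. Whether a locus close to a gene on the same strand is a missing exon of it cannot be told apart here.

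Levels were low and uneven. Summed over the transcripts of a locus, the median over loci of the mean FPKM of 9 libraries was 1.52. Implied reads per library had a median of 10.2 per locus, 728 loci had a mean under 10 and 282 a mean of at least 100. The 10 loci with most reads held 50.6% of all reads of the loci. FPKM is divided by the effective length, the number of places a fragment can start, and for transcripts not much longer than a fragment this is close to 0. A few reads on a transcript under 300 bases thus become a large FPKM. At 260 loci the summed FPKM was over 5 times the value per effective length of the merged exons. For this reason a second value is given for each locus, the exon level. It takes the implied reads of every transcript that a library lists over the merged exons on the same strand. Transcripts other than the spliced ones count by the share of their bases in those exons. The sum is divided by the effective length of the merged exons. The exon level is in FPKM and still depends on what the assembler listed. A value of 0 means that no transcript above 0 was listed there, not that reads were absent. Short transcripts are uncertain on both values. From transcripts of 60 to 100 bases the implied depth was 0.30 to 0.38 of that from transcripts of 600 bases or more.

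SL0366 had the highest mean FPKM (chr3:116411182-116414275, plus strand, 5 exons, 1255 bases), 1440 bases upstream of an annotated transcript without a symbol. Its summed FPKM was 4080 and 4910 in MSC replicates 1 and 3, 287, 261 and 278 in NPCs and 512, 272 and 259 in NPC IGF1. In MSC replicate 2 no transcript at all was listed over it. The annotated neighbour was at 6590 FPKM in MSC replicate 3 and at 502 to 1350 FPKM in the induced libraries, and it was at 0 in MSC replicates 1 and 2. A value of 0 beside such levels can be a failed estimate, so SL0366 is given by its values alone. It alone held 22.2% of the reads of all loci.

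Without SL0366 the loci took 0.704%, 0.676% and 0.589% of the implied reads in MSCs, 0.695%, 0.642% and 0.740% in NPCs and 0.696%, 0.583% and 0.564% in NPC IGF1. With it the shares were 1.32%, 0.676% and 1.37% in MSCs, 0.741%, 0.681% and 0.784% in NPCs and 0.779%, 0.629% and 0.607% in NPC IGF1, so that MSC replicates 1 and 3 changed most. The groups overlapped in every comparison (exact two-sided permutation p = 0.4, 0.2 and 0.3, of which the smallest possible is 0.1, for NPCs against MSCs, NPC IGF1 against MSCs and NPC IGF1 against NPCs). The shares of single-exon transcripts in MSCs and in the induced libraries did not overlap, and were not tested. Single-exon transcripts in introns of annotated genes held 1.40 to 1.84% of reads in MSCs, 5.08 to 7.39% in NPCs and 4.69 to 5.25% in NPC IGF1, and single-exon transcripts between genes 3.97 to 4.71%, 6.11 to 7.93% and 6.56 to 7.31%. Those values move with every comparison with MSCs below, and their part in the results was not tested.

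**Figure D2:**
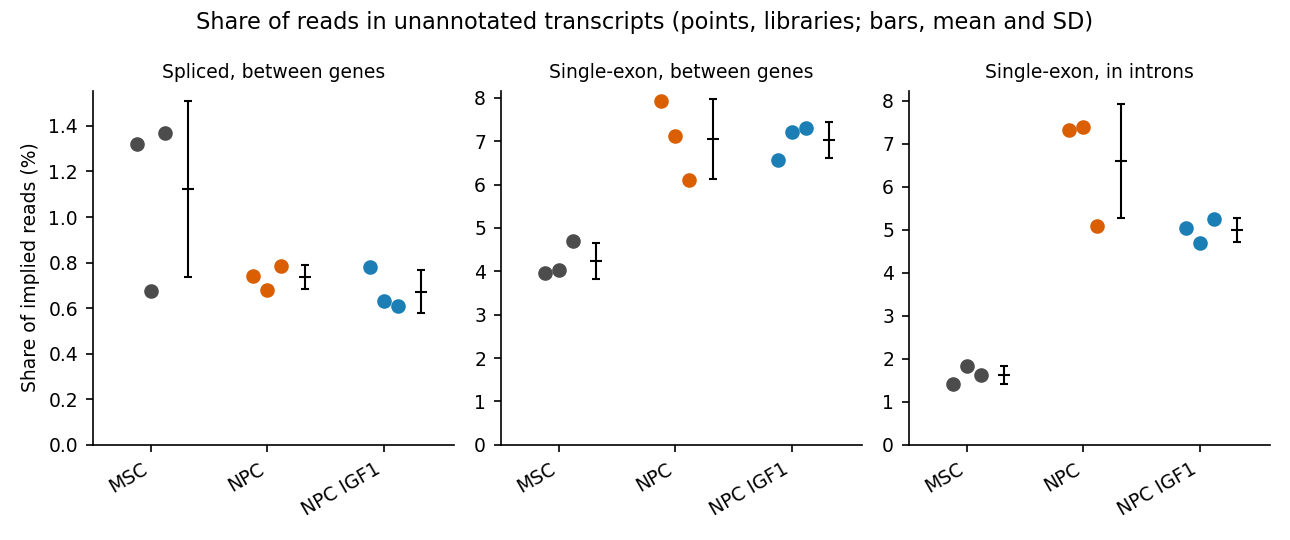
Share of implied reads (%, y axis from 0) in 3 classes of unannotated transcripts, by group; points are libraries and bars the mean and SD of 3. The spliced transcripts between genes lie at 0.607 to 1.37% in all groups, and both single-exon classes are higher in all 6 induced libraries than in MSCs.

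Other loci of high mean FPKM rested on short transcripts. SL1458 (132 bases), SL0200 (173 bases), SL0033 (106 bases) and SL0043 (75 bases) had no transcript of 300 bases, and SL0043, with 803 and 957 FPKM in NPC replicates 1 and 3, held 47.1 and 70.8 implied reads there. SL0033 was listed in the 3 MSC libraries only, at 1900, 174 and 207 FPKM, from 78.5, 38.4 and 22.9 reads. SL1019, SL1199 and SL1452 had longer transcripts and still owed their rank to short ones: SL1019, downstream of the ATPase gene Atp13a3, had up to 935 FPKM and exon-level values of 4.54 to 8.42. Only SL0366, SL0198 and SL0307 of the 10 had exon-level values over 100 FPKM on transcripts of 300 bases or more.

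SL0307 was an even and abundant locus (chr2:269129486-269162545, plus strand, 6 exons), head to head with an annotated gene at 372 bases. It had 338, 315 and 281 FPKM in MSCs, 151, 184 and 186 FPKM in NPCs and 202, 173 and 173 FPKM in NPC IGF1. All induced libraries were below all MSC libraries. Its log2 change was -0.92 ± 0.15 (SE, adjusted p = 0.00422) in NPCs and -0.86 ± 0.12 (adjusted p = 0.00103) in NPC IGF1, under the 2-fold limit used for a call.

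NPCs were compared with MSCs to see which loci changed on induction. Of the 1471 loci, 493 reached 0.1 FPKM in at least 3 of the 6 libraries with a transcript of 300 bases or more and were tested by limma together with 13693 annotated genes. At an adjusted p of 0.05 and a change of at least 2-fold, 34 were higher and 40 lower in NPCs. The 74 are 15.0% of the loci tested, and 20.7% of all features tested were called (10.9% higher, 9.79% lower). Values of NPCs and MSCs did not overlap at 136 tested loci (27.6%), against 49.0% of all features. The median log2 change was 0.12 over the loci and 0.02 over all features. A locus present in 1 group only passes the filter through that group, so these counts do not describe all loci. The split between higher and lower rests on that filter, which needs 3 libraries: without NPC replicates 1, 2 and 3 there were 5, 7 and 10 higher and 39, 46 and 56 lower loci, and without MSC replicates 1, 2 and 3 there were 39, 37 and 36 higher and 8, 11 and 11 lower ones. For a locus at 0 in a whole group, values are therefore given below without a p.

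Many of the calls were between listed and not listed. In 53 of the 74 the lower group was at 0 in all 3 libraries, and in 24 of the 53 other transcripts covered the same exons there. At the exon level 58 of the 74 had the same call, 14 had no call and 2 had the opposite call. The exon level holds the same spliced transcripts. Where no other transcript covered the exons in the lower group, it was 0 there too, and the same call is no separate result. The exon-level test had 1037 loci, of which 232 were higher and 116 lower in NPCs (33.6%), against 22.1% of all features. For one direction the background was 12.1% higher and 10.1% lower. The median log2 change at the exon level was 0.34 over loci and 0.04 over all features. The loci were drawn from 6 induced and 3 MSC libraries, and the part of this in the number called in each direction was not tested. More were called higher than lower at the exon level, and the shares of reads in single-exon transcripts, given above, were higher in NPCs as well.

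**Figure D3:**
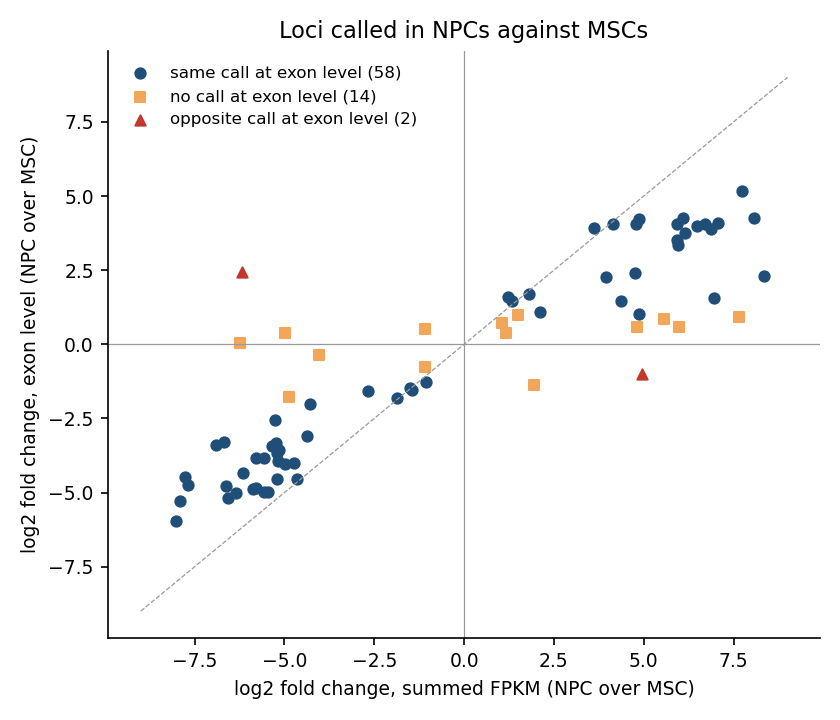
Log2 fold change of NPCs over MSCs for the 74 loci called on the summed FPKM, by the summed FPKM (x axis) and by the exon level (y axis); the dashed line marks equal values. At the exon level 58 have the same call, 14 have no call and 2 the opposite one, and 6 of the 74 have the opposite sign. Both values hold the same spliced transcripts, so the same call is not a separate result.

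SL0198 (chr1:259760024-259773425, minus strand) was lower in NPCs while spliced in every library. It had up to 9 exons and 4446 bases and lay 782 bases tail to tail from an annotated gene. Its summed FPKM was 642, 1320 and 501 in MSCs, 34.1, 14.4 and 62.9 in NPCs and 21.5, 13.3 and 14.0 in NPC IGF1. Behind the MSC values stood 46900, 53300 and 37700 implied reads, and behind those of NPCs 1180, 701 and 4720. The groups were far apart, by a log2 change of -4.66 ± 0.62 (SE, adjusted p = 0.00358) in the summed FPKM and -4.53 ± 0.51 (adjusted p = 0.000952) on the exon level. The annotated neighbour changed the other way, by 0.76 ± 0.16 (adjusted p = 0.0109).

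Several loci were listed in MSCs only. SL0538 (chr5:84681136-84735698, plus strand, 3 exons, up to 2942 bases) had 16.4, 21.4 and 46.7 FPKM in MSCs, exon-level values of 4.78, 6.62 and 6.83 FPKM, and no transcript of any kind over its exons in the 6 induced libraries. It lay 281368 bases from the nearest annotated transcript, whose level was lower in NPCs as well (log2 change -4.13 ± 0.24, adjusted p = 7.65e-05). SL0783 (chr8:53034106-53211962, minus strand), 141810 bases from its nearest gene, had 34.5, 4.22 and 87.7 FPKM in MSCs and was likewise without transcripts in the induced libraries. The exon-level values of SL0783 were 6.41, 8.13 and 0.948 FPKM, so MSC replicate 3 was high in the summed FPKM and low on the exon level.

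SL0363 (chr3:116095598-116159448, minus strand, 5 exons) was at 11.2, 7.11 and 5.90 FPKM in MSCs and had no transcript elsewhere. SL1451, on chromosome X, ended 674 bases upstream of Pwwp3b, which encodes a PWWP domain protein. SL1451 was at 25.6, 3.54 and 8.17 FPKM in MSCs, from 15.6 to 29.0 reads per library, and listed nowhere in the induced cells. Pwwp3b fell by 3.05 ± 0.25 on the log2 scale (SE, adjusted p = 0.000303).

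SL0853, SL0381, SL0912 and SL1084 were listed at 0 in the induced libraries and had single-exon transcripts over their exons in some of them. SL0853 (chr9:26065677-26068367, minus strand) was even over MSC libraries, at 20.6, 22.0 and 21.4 FPKM in MSCs. Its exon level was 17.9, 22.0 and 13.6 FPKM in MSCs and 0, 1.51 and 3.46 FPKM in NPCs (log2 change -4.47 ± 1.32, adjusted p = 0.0474), and 2.82, 2.09 and 1.79 FPKM in NPC IGF1 (adjusted p = 0.0593). SL0871 (chr9:76006838-76105312, minus strand, 5 exons), 114793 bases from the nearest annotated gene, had 40.0, 34.4 and 21.5 FPKM in MSCs and 0, 0 and 3.24 FPKM in NPCs. On the exon level SL0871 fell by 4.79 ± 0.59 on the log2 scale (adjusted p = 0.00112), from 4.60 to 7.62 FPKM in MSCs to at most 0.476 FPKM in NPCs.

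SL0018 was an exception among the lower loci. It had 14.2, 3.35 and 7.79 FPKM in MSCs and was at 0 in NPCs, yet its exon level was 2.64, 3.13 and 1.57 FPKM in MSCs and 1.88, 2.88 and 3.22 FPKM in NPCs. The exon-level difference was 0.06 ± 0.30 on the log2 scale (adjusted p = 0.891). What differed at SL0018 was that the NPC libraries covered its exons with single-exon transcripts only.

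Among the loci higher in NPCs, SL0861 (chr9:47647132-47652828, plus strand, 3 exons, up to 2763 bases) was even over NPC libraries, and no annotated gene lay within 198250 bases. It was at 0 in MSCs and at 15.7, 12.1 and 13.3 FPKM in NPCs. The exon level was 0.223, 0.540 and 0.443 FPKM in MSCs, 8.19, 8.66 and 8.94 FPKM in NPCs and 5.79, 5.33 and 8.48 FPKM in NPC IGF1. Every induced library was above every MSC library, by a log2 change of 4.10 ± 0.30 (SE, adjusted p = 0.000121) in NPCs and 3.67 ± 0.29 (adjusted p = 2.99e-05) in NPC IGF1.

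SL0771, SL0876, SL1158 and SL1167 were spliced in all 6 induced libraries and without any transcript in MSCs. SL0771 (chr8:31700228-31790537, plus strand) lay 137013 bases from its nearest gene and had exon-level values of 1.03, 2.13 and 1.29 FPKM in NPCs and 0.786, 1.31 and 1.62 FPKM in NPC IGF1. SL1158, downstream of Eml6, a gene of the microtubule-associated EML family, at 5890 bases on the same strand, had 25.2, 7.95 and 5.85 FPKM in NPCs and 2.55, 7.03 and 3.25 FPKM in NPC IGF1. These are small numbers of reads, 11.0 to 42.8 per library at SL1158. Eml6 rose by 1.09 ± 0.29 on the log2 scale in NPCs (adjusted p = 0.0259) and 1.24 ± 0.26 in NPC IGF1 (adjusted p = 0.00604).

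A pair of loci on chromosome 9, SL0876 and SL0877, lay 4685 bases apart on the minus strand and were both without transcripts in MSCs. SL0877 had 43.8, 87.3 and 5.36 FPKM in NPCs and 23.9, 133 and 0 FPKM in NPC IGF1, on exon-level values of 1.25 to 2.6 and 0 to 2.53 FPKM. NPC IGF1 replicate 3 was the lowest of the induced libraries at both loci, with 0 at SL0877 and an exon level of 0.245 FPKM at SL0876. SL1279, head to head with Itih2, the heavy chain of an inter-alpha-trypsin inhibitor, at 23488 bases, was at 18.4, 29.5 and 18.6 FPKM in NPCs, and at 4.93, 5.24 and 0 FPKM in NPC IGF1.

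SL0186, the longest, was at 0 in MSCs and NPC IGF1 replicate 3, at 39.9, 16.5 and 55.0 FPKM in NPCs and at 37.6 and 20.0 FPKM in the other two NPC IGF1 libraries. Single-exon transcripts covered its exons in MSCs, at exon-level values of 17.9, 18.5 and 18.3 FPKM, against 175, 96.1 and 52.4 FPKM in NPCs and 85.4, 117 and 110 FPKM in NPC IGF1. It was therefore present in MSCs and rose by 2.31 ± 0.38 on the log2 scale (SE, adjusted p = 0.00412) in NPCs and 2.40 ± 0.36 (adjusted p = 0.000965) in NPC IGF1, while its nearest gene, 9214 bases away, did not pass (0.06 ± 0.15, adjusted p = 0.771). SL0313 and SL1406 were also at 0 in MSCs, where isoforms of annotated genes covered the exons of SL0313 and single-exon transcripts those of SL1406. They had exon-level log2 changes of 1.56 ± 0.35 (adjusted p = 0.0131) and 0.91 ± 0.18 (adjusted p = 0.00731), the second under the 2-fold limit.

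**Figure D4:**
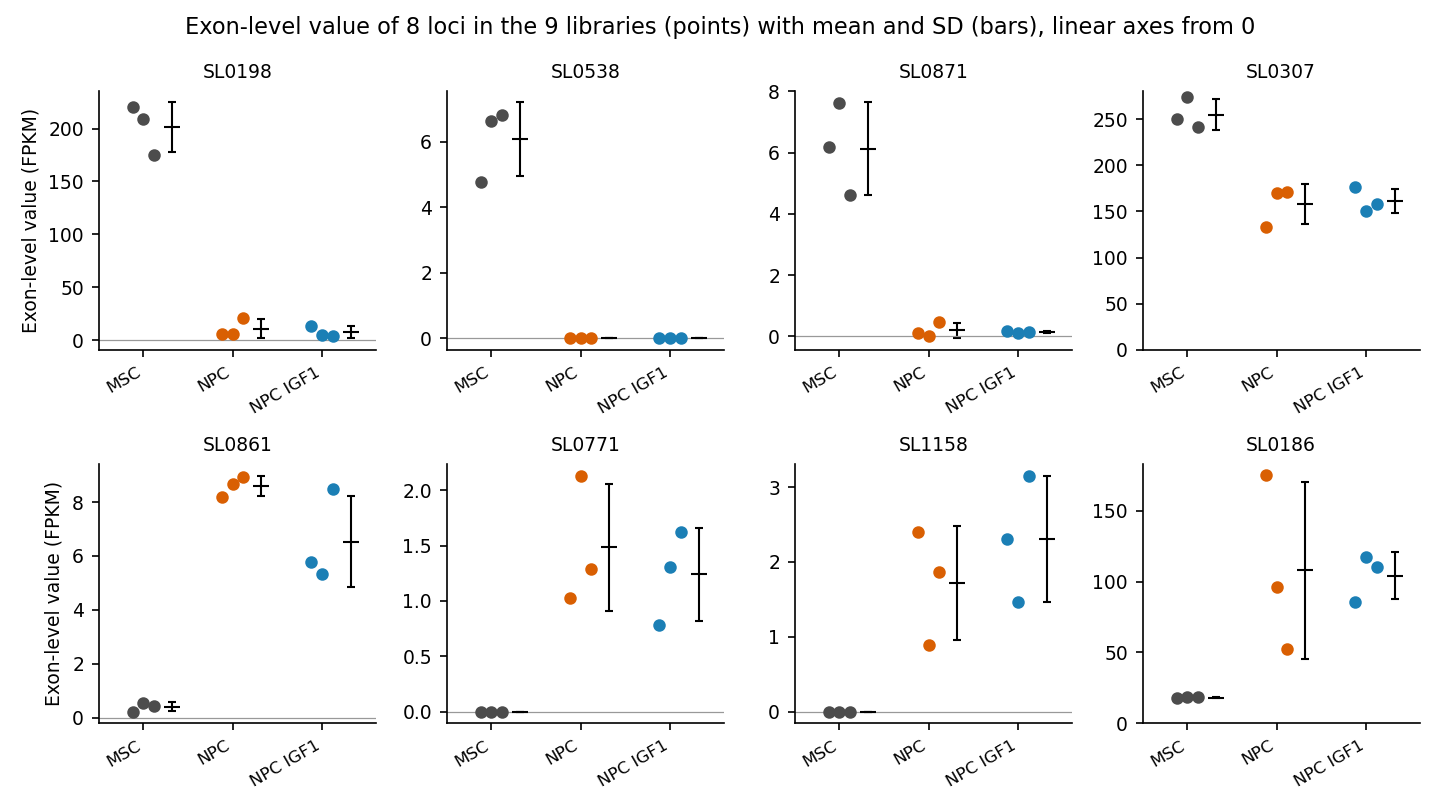
Exon-level value (FPKM, linear y axes) of 8 loci in each library, by group; points are libraries and bars the mean and SD of 3. SL0198, SL0538, SL0871 and SL0307 are lower in every induced library than in every MSC library, and SL0861, SL0771, SL1158 and SL0186 are higher.

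The nearest genes of called loci moved in some cases. Of the 74 loci called in NPCs on the summed FPKM, 49 had a nearest gene that was tested, and it was called in the same direction at 14, in the opposite direction at 5 and not called at 30, where 10.9% of all features were called higher and 9.79% lower. At the exon level the counts were 103, 9 and 165 of 277. Of the 134 such loci within 5000 bases of a tested gene, 53 had a gene called the same way and 2 the opposite way, and of the 143 further away 50 and 7. In the exon-level fit 12.1% of all features were called higher and 10.1% lower. A transcript that overlaps an annotated gene counts both in the exon level of a locus and in the level of that gene. Calls of locus and gene in the same direction can therefore come in part from shared transcripts. That part was not tested.

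NPC IGF1 was set against the same MSC libraries. Of 653 loci tested, 35 were higher and 43 lower (11.9%), with 20.6% of all features called (11.0% higher, 9.58% lower). In 59 of these 78 the lower group was at 0 in all its libraries, and in 26 of the 59 other transcripts covered the exons there. At the exon level 60 of the 78 had the same call, 15 had no call and 3 had the opposite call. As above, the same call is no separate result where no other transcript covered the exons. Without MSC replicates 1, 2 and 3 there were 29, 30 and 33 higher and 20, 18 and 22 lower loci, and without NPC IGF1 replicate 1 there were 23 and 46. On the exon level 241 were higher and 114 lower of 1111 (355 calls), with 22.1% of all features called (12.2% higher, 9.85% lower). Both comparisons share the MSC libraries, so that shared calls are no independent result. Of the loci called higher on the summed FPKM 13 were in both, 38.2% of those of NPCs and 37.1% of those of NPC IGF1, and of the lower ones 29, 72.5% and 67.4%. The lists come from unlike tests, of 493 loci in 6 libraries for NPCs and of 653 loci in 9 libraries for NPC IGF1. The matching share over all features is not given, so these shares cannot be read as high or low.

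The named loci lower in NPC IGF1 included SL0538, SL0783, SL0381, SL0853, SL0912, SL1084 and SL0871, all listed at 0 in its 3 libraries. On the exon level SL0853 and SL1084 did not pass (adjusted p = 0.0593 and 0.0535), and SL0871, with values above 0 in every NPC IGF1 library, fell by 4.69 ± 0.55 on the log2 scale (adjusted p = 0.00025). SL0914, which lay 8826 bases beyond SL0912 on the same strand of chromosome 10, was at 48.7, 69.9 and 7.12 FPKM in MSCs and at 72.2 FPKM in NPC replicate 1, and at 0 in the other two NPC libraries and in NPC IGF1. The long SL0650 was lower in both readings, with exon-level values of 2.68, 3.13 and 1.82 FPKM in MSCs and 0.407, 0.320 and 0.259 FPKM in NPC IGF1 (log2 change -2.69 ± 0.27, adjusted p = 0.000105).

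At SL0558 and SL0696 the call went with how exons were joined. SL0558 (chr5:144612597-144613471, minus strand) was at 14.3, 15.1 and 18.7 FPKM in MSCs and at 0 in NPC IGF1, where its exons were part of a transcript that overlapped an annotated gene. Its exon level stayed between 8.32 and 11.0 FPKM in all 9 libraries. SL0696, with up to 12 exons (chr7:18605541-18616765, plus strand), was at 17.7, 13.6 and 21.1 FPKM in MSCs and at 0 in NPC IGF1. On the exon level SL0696 was higher in NPC IGF1, at 20.1, 16.5 and 19.4 FPKM against 7.59, 7.96 and 7.28 FPKM (log2 change 1.19 ± 0.16, adjusted p = 0.000562). SL0158 was the mirror case, listed at 0 in MSCs and called higher on the summed FPKM, with an exon level of 7.76, 5.61 and 6.82 FPKM in MSCs and 2.45, 1.41 and 1.61 FPKM in NPC IGF1 (log2 change -1.94 ± 0.32, adjusted p = 0.00174).

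Named loci called higher in NPC IGF1 on both values included SL1070, SL0680 and SL1239, and also SL0771, SL0876, SL1158, SL1167, SL1436, SL0372 and SL0502. All of these were at 0 in MSCs on the summed FPKM and entered that test through the induced libraries. The calls are therefore no separate support. SL1070 had exon-level values of 0.298, 0 and 0 FPKM in MSCs and 1.01, 1.17 and 1.54 FPKM in NPC IGF1. Its nearest annotated transcript rose as well (log2 change 1.39 ± 0.13, limma adjusted p = 0.000115). SL1239 was without transcripts in MSCs and at 4.10, 1.91 and 1.84 FPKM on the exon level in NPC IGF1, and among NPCs it was listed in replicate 1 only. SL0592 was called on the summed FPKM and not on the exon level (adjusted p = 0.172), where MSC replicate 3 had 1.39 FPKM.

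NPC IGF1 was set against NPCs to see what IGF1 added to EGF and bFGF. Of 653 loci, 5 were higher and 1 lower in NPC IGF1 than in NPCs, and 0.0605% of all features were called (0.047% higher, 0.0134% lower). The higher ones were SL1436, SL0406, SL0502, SL0372 and SL1028 and the lower one SL0919. All 6 were at 0 in the 3 libraries of the other group and entered the test through the group where they were listed, and in each case another transcript covered the exons in at least 1 of these libraries. On the exon level none of the 6 passed, 0 of 1111 loci were higher and 2 were lower by limma, against 0.0326% of all features (0.013% higher, 0.0196% lower). At an unadjusted p under 0.05 there were 70 loci (6.30%) and 4.64% of all features. Medians of the log2 change were -0.10 over loci and 0.00 over all features for the summed FPKM.

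SL0502 (chr4:232970988-232993713, plus strand, 2 exons) was at 2.40, 2.95 and 5.80 FPKM in NPC IGF1 and at 0 in the other 6 libraries. The exon level was 2.40, 2.06 and 1.73 FPKM in NPC IGF1 and 1.32, 0.972 and 0.451 FPKM in NPCs, without overlap, with a log2 change of 1.17 ± 0.36 (adjusted p = 0.998). SL1436, head to head with Zcchc13, a zinc knuckle protein gene, at 7180 bases, had 3.65, 6.63 and 10.8 FPKM in NPC IGF1, from 12.9 to 24.1 reads per library. In NPCs only replicate 3 had a transcript there, at an exon level of 1.96 FPKM.

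SL0372 lay upstream of Atp8b4, a phospholipid flippase gene, by 40311 bases on the same strand and was at 1.8, 4.27 and 2.97 FPKM, and SL0406 was at 6.17, 4.84 and 5.90 FPKM. SL1028, head to head with an annotated transcript at 512 bases, was at 0.441, 1.41 and 1.29 FPKM in NPC IGF1, with exon-level values of 1.59, 1.23 and 1.67 FPKM there and 1.75, 1.62 and 1.25 FPKM in NPCs. The exon-level ranges of SL1028 overlapped. Those of SL0372 did as well, with 0.707 FPKM in NPC replicate 3 and 0.48, 1.27 and 1.72 FPKM in NPC IGF1. On the exon level SL0406 had 2.17, 0 and 3.12 FPKM in NPCs and 3.2, 4.4 and 3.44 FPKM in NPC IGF1. SL0919 was at 2.20, 14.2 and 7.78 FPKM in NPCs, from 11.1 to 13.6 reads, and at 0 in NPC IGF1. Its exon level was 0.863, 1.1 and 0.886 FPKM in NPCs and 0.861, 0 and 0 FPKM in NPC IGF1.

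What a library listed over the exons of a locus where it had no spliced transcript of its own was counted for all 1471 loci. In MSCs 569, 543 and 512 loci were spliced, 204, 208 and 187 were covered only by transcripts that overlapped annotated genes, 265, 296 and 325 only by single-exon transcripts, and 433, 424 and 447 by none. NPC libraries had 320, 341 and 330 loci without any transcript and NPC IGF1 libraries 281, 325 and 335. Single-exon transcripts alone covered 388, 390 and 387 loci in NPCs. The loci were defined from 6 induced and 3 MSC libraries, and 232 of them came from MSCs alone. The part of that choice in these counts was not tested.

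**Figure D5:**
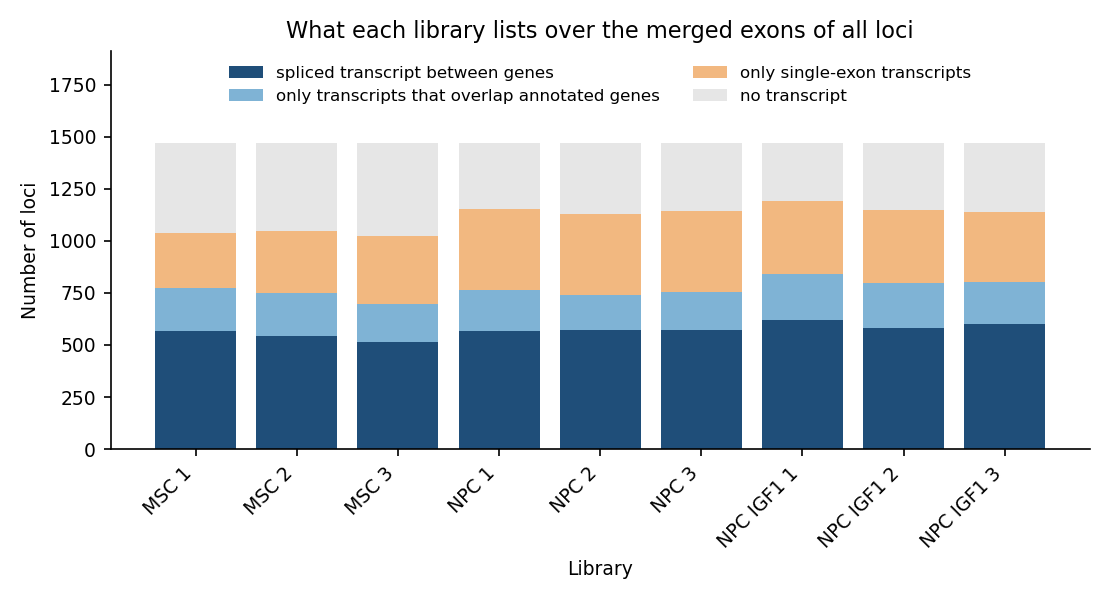
Number of the 1471 loci (y axis) by what each library (x axis) listed over their merged exons. Loci without a transcript number 424 to 447 in MSC libraries and 281 to 341 in induced libraries, and loci with single-exon transcripts only number 265 to 325 and 334 to 390.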

How the data were processed

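The deposited files were transcript assemblies, 1 per library, with exon positions, a score column that was not used, and per transcript the FPKM text that the authors' Cufflinks run wrote (other values in the same column were its interval and coverage). Per the labels the tools were CASAVA 1.8, bcl2fastq, TopHat, Bowtie2, Cufflinks and Cuffdiff; their genome build is not stated (the study's methods name other software for its gene counts), and coordinates are as deposited. FPKM carries no read counts. Depth was implied from FPKM, its interval width and effective length (fragments of 200 ± 80 bases). Lone single-exon transcripts between genes of 600 bases or more were used for it. Reads were implied from FPKM, effective length and that depth. The value of a locus is the sum of the FPKM of its spliced transcripts. limma 3.58.1 (R 4.3.3; trend, robust) was run on log2(FPKM + 0.1) after median-of-ratios scaling over annotated genes, on all tested genes and loci, with Benjamini-Hochberg adjustment, in 6 libraries for NPCs against MSCs and in 9 otherwise; a call is an adjusted p of at most 0.05 and a 2-fold change. Fold changes understate low values. Tests were run on simulated data first. Replicate numbers were checked for pairing and did not show it, so libraries were treated as unpaired. Named loci were, per comparison, the 10 highest and 10 lowest called changes with a mean of at least 1 FPKM and no overlap, the 10 of highest FPKM, the 5 of most exons, the 5 longest, up to 5 in a single group, and every locus called between the induced groups. Gene symbols covered 2413 of 26249 annotated genes; none of 20 known long noncoding RNAs looked up was among them. Members and lists were chosen with earlier results of these data known. Exon-level and effective-length values were added after seeing the data. Sequences of the loci are not reported here, as no genome of their build was used.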

Additional observations from a re-analysis of the deposited data

Results flagged for a closer look

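Single-exon transcripts, which the comparisons of spliced transcripts do not use, were the only cover of 388, 390 and 387 of the 1471 loci in NPC replicates 1 to 3 and of 350, 347 and 334 loci in NPC IGF1 replicates 1 to 3. In the control MSC libraries the counts were 265, 296 and 325, below those of every induced library. The loci were defined from 6 induced and 3 MSC libraries, and the part of that choice in the difference was not tested. Reads in single-exon transcripts between genes and in introns were higher in the induced libraries as well.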

How the results depend on the processing

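FPKM without read counts, implied reads near 10 for the middle locus and 3 libraries per group limit what could be detected. Values on the exon level and per effective length, without the locus of most reads, and with the annotation of all libraries were chosen after seeing the data. With reads of single-exon transcripts added, per effective length and on the exon level, the loci called were 230, 117 and 348 (74 in the report) for NPCs against MSCs and 222, 123 and 355 (78 in the report) for NPC IGF1 against MSCs. Between the induced groups (6 in the report) a filter at 1 FPKM gave 2 and the exon level 2. Leaving out 1 library gave 44 to 66 calls (44 without NPC replicate 1; 47, 48 and 47 without MSC replicates 1, 2 and 3), 48 to 69 (49 and 48 without MSC replicates 1 and 2) and 2 to 10 calls (10 without NPC replicate 2, 2 without NPC IGF1 replicate 2 or 3). The filter asks for 3 libraries, so a locus read in 1 group alone is then no longer tested. The share of reads was lower in NPCs than in MSCs by the main value (-0.3851 percentage points, exact permutation p = 0.4). It was 0.1432 higher for transcripts at least 5 kb from annotated ones (exact permutation p = 0.1, the smallest possible). Without the locus of most reads it was 0.03563 higher (exact permutation p = 0.5). For NPC IGF1 it was -0.4487, and 0.06744 at least 5 kb away (exact permutation p = 0.2 and 0.3). The cause was not tested. Among the named loci, log2 changes turned sign for SL0018 (0.24 with single-exon transcripts added, 0.06 on the exon level), SL1028 (-0.46 and -0.05), and on the exon level for SL0158 (-1.94), SL0558 (0.01) and SL0696 (1.19). Of the other called loci, SL0026 went from -6.18 to 2.44 in NPCs and from -6.21 to 2.19 in NPC IGF1, and SL0353 from 4.97 to -1.01 in NPCs, each with the opposite call on the exon level; these were looked up after their values were seen. Same-numbered libraries had correlations of their deviations between -0.0985 and 0.1035, so the numbers were not taken to pair them; with the replicate as a block the calls were 79, 81 and 5.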
